A study of Mus musculus with 6 samples.

Results

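The 30 genes described here make cholesterol, sense it or handle it. They comprise 19 enzymes of the mevalonate and sterol synthesis route, 5 regulators of the sterol-responsive transcription factors called SREBPs, 4 genes for sterol uptake, sterol transfer and fatty acid desaturation, and 2 sterol esterification enzymes. They were chosen by symbol, from their known roles and with earlier results of these data known, out of 36652 genes in the table. All 30 were found, and 29 had enough reads to be tested. RNA sequencing of whole testes from 8-week-old mice gave 3 libraries of the Ccdc117ko genotype and 3 of the WT genotype. The series title connects loss of Ccdc117, a gene for a coiled-coil protein, with androgen production and sperm formation. The labels do not describe the Ccdc117 allele, the strain or any treatment, and they do not say whether each replicate came from its own mouse, so every p-value reflects only how far these libraries spread, which may in part be technical.

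Cells build cholesterol from acetyl-CoA. The mevalonate steps end in farnesyl pyrophosphate, from which branches lead to dolichol, ubiquinone and prenylated proteins, while squalene synthase commits the carbon to sterols. When sterols in the endoplasmic reticulum are low, SCAP escorts SREBPs to the Golgi, where proteases release the active transcription factor. When sterols are high, the INSIG proteins hold SCAP back. In the testis, Leydig cells turn cholesterol into androgens, and haploid germ cells of the mouse carry high levels of CYP51 and its product, a meiosis-activating sterol.

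SREBPs bind short promoter elements next to a CCAAT box bound by NF-Y, and germ cell transcription of Cyp51 is known to use the factors CREB and CREM, which bind TGACG-type elements. Promoter windows from 250 bases before to 50 bases after an annotated start (RefSeq, GRCm38.p6) were found for 24 of the 30 genes. Each was searched on both strands for TCACNCCAC (an SREBP element), CACGTG (an E-box), CCAAT, TGACGTCA (a full CREB/CREM element) and TGACG, which also lies inside the full element. A CCAAT box was present in 21 of the 24 genes (87.5%), against 41.1% of the 27025 genes with a window. TGACG was present in 11 of 24 (45.8%) against 23.0%, CACGTG in 5 of 24 (20.8%) against 8.09%, and TCACNCCAC in 1 of 24 (4.17%) against 1.44%. The full element TGACGTCA was in none of the 24, against 2.03% of all genes. A match describes letters only, and the lack of one says only that those letters are not in the window. No window was found for Fdps, Fdft1, Sqle, Stard4, Fads1 and Soat2, so their promoters were not searched.

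The stretches below are 150 bases each, free of annotated exons and written in the direction of transcription, with the matched letters in capitals. They show the spread of motif content among 2 genes that were higher in the Ccdc117ko libraries (Cyp51 at chr5:4104747-4104896, minus strand, and Sc5d at chr9:42264301-42264450, minus strand), 2 other enzymes (Lss at chr10:76531438-76531587, plus strand, and Hmgcs1 at chr13:119690201-119690350, plus strand) and a regulator (Insig1 at chr5:28071213-28071362, plus strand).
Cyp51: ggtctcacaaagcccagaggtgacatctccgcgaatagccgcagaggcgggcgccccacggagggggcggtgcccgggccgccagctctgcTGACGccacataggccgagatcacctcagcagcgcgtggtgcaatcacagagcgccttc
Sc5d: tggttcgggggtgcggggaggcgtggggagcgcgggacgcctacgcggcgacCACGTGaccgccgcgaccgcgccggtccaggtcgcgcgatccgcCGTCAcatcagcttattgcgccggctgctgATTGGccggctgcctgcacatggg
Lss: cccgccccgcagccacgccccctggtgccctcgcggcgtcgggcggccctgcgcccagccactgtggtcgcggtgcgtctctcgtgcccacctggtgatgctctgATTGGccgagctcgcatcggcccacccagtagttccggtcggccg
Hmgcs1: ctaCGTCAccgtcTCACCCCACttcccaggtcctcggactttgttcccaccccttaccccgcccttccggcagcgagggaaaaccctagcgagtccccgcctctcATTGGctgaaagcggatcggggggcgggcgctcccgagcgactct
Insig1: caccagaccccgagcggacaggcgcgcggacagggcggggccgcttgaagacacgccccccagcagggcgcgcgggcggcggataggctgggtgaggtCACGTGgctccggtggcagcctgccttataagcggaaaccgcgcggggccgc
Of the 24 genes with a window, Hmgcs1 was the 1 that held TCACNCCAC, and variants of that motif were not searched. The Hmgcs1 stretch also holds a CCAAT box (read as ATTGG) and a TGACG (read as CGTCA). The Sc5d stretch carries an E-box, a CCAAT box and a TGACG, and the Cyp51 stretch a TGACG, with a CCAAT box nearer the start, outside the printed bases. The Lss stretch shows only a CCAAT box and the Insig1 stretch only an E-box. Insig1 also has a CCAAT box and a TGACG farther from the start, outside the printed bases. The stretches begin 150 to 199 bases before the start and end 1 to 50 bases before it. Their motif content therefore depends in part on where each was cut. Among the enzymes, CCAAT was found both in genes called higher in Ccdc117ko and in uncalled ones. It was in Cyp51, Sc5d, Tm7sf2 and Dhcr7, which were called, and in Lss, Hmgcs1, Msmo1, Mvk, Pmvk, Mvd, Idi1, Nsdhl, Hsd17b7, Ebp and Ggps1, which were not. A gene with several windows was counted when any of them held the letters. In Dhcr7 the CCAAT box lay only in the window at chr7:143829964-143830263, not in its windows nearer the start of the gene.

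The libraries held 38521519 to 39368277 reads in the Ccdc117ko genotype and 35791616 to 43461692 in WT. All values below are normalized counts, that is, reads assigned to a gene after scaling for library depth. A gene was called when its adjusted p from limma, a linear model fitted to the 22878 genes averaging 10 or more normalized counts, was under 0.05 (two-sided). Of these genes 16.6% were called, 8.35% higher and 8.25% lower in Ccdc117ko. The Ccdc117 gene itself had 3478, 3772 and 3908 normalized counts in the Ccdc117ko libraries and 3657, 3826 and 3931 in the WT libraries, with overlapping ranges (log2 fold change -0.03, limma adjusted p = 0.714). The gene total therefore does not separate the genotypes, and, as the labels do not say which part of the gene was altered, it is no check of the labels. Every marker examined for Leydig cells, Sertoli cells, spermatogonia, pachytene spermatocytes, round spermatids and elongating spermatids had reads in all 6 libraries.

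Across the 29 tested genes, 6 rose and 1 fell in Ccdc117ko testes (20.7% and 3.45%, against 8.35% and 8.25% of all tested genes). The 6 were the enzymes Fdps, Cyp51, Tm7sf2, Sc5d and Dhcr7 and the fatty acid desaturase Fads1; the 1 that fell was Scap. The log2 fold change was above 0 for 23 of the 29, with a median of 0.11, whereas 49.1% of all tested genes were above 0 with a median of -0.01. With the filter lowered to a mean of 0.5 normalized counts, 6.8% of all genes tested were called, and the members called were Cyp51, Sc5d, Dhcr7, Fads1 and Scap. In 13 genes all Ccdc117ko libraries lay above all WT libraries and in 3 all lay below (44.8% and 10.3%, against 17.3% and 17.2% of all tested genes). In these bulk samples, a change in the number of cells of a type and a change in RNA per cell cannot be told apart.

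**Figure D1:**
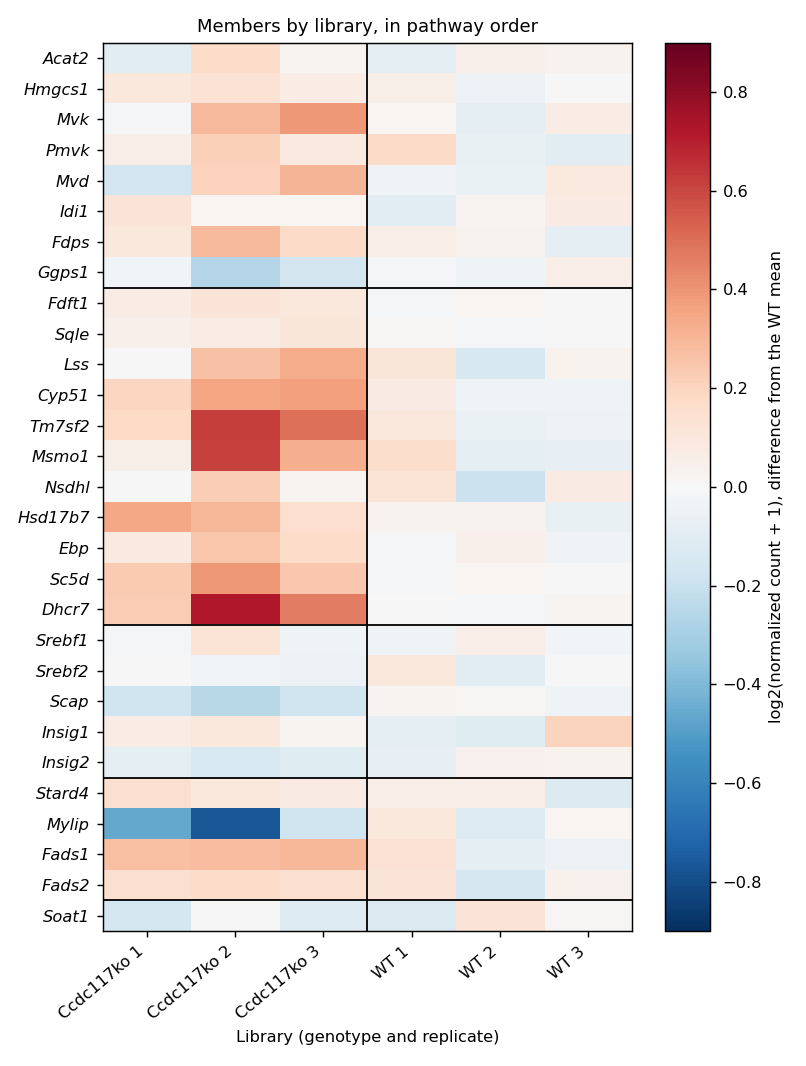
Each cell of the heat map is the log2(normalized count + 1) of a gene in a library minus the mean of the WT libraries, for the 29 tested genes in pathway order; columns are the 3 Ccdc117ko and then the 3 WT libraries, and black lines separate the roles. Red cells gather in the Ccdc117ko columns from Fdft1 to Dhcr7, and apart from Hsd17b7 are palest there in replicate 1.

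Of the 8 enzymes of the mevalonate part, 1 was called higher (12.5%, near the 8.35% of all tested genes), with 7 of 8 log2 fold changes above 0 and a median of 0.10. Fdps (ENSMUSG00000059743, chr3:89093588-89101959, minus strand; GENCODE M21, GRCm38), farnesyl pyrophosphate synthase at the branch point of the pathway, had 3577, 4110.5 and 3776 normalized counts in Ccdc117ko and 3488, 3422 and 3161 in WT. Every Ccdc117ko library was above every WT library. The means were 3821 ± 269.7 in Ccdc117ko and 3357 ± 173 in WT (SD, n = 3 each), a ratio of 1.14 and a log2 fold change ± SE of 0.19 ± 0.06 (limma adjusted p = 0.047). This call lies close to the threshold: it was lost without Ccdc117ko replicate 2 (limma adjusted p = 0.209), Ccdc117ko replicate 3 (0.0968), WT replicate 2 (0.0811) or WT replicate 3 (0.177), and when libraries were scaled to their total reads (0.0611) or the filter was lowered to 0.5 normalized counts (0.118). Of the 50-base words of the Fdps transcript, 11.7% also occur in other genes, mainly Gm43738, so a share of its reads could be counted elsewhere.

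Hmgcs1, the HMG-CoA synthase that forms the precursor of mevalonate, also had no overlap, with 2574, 2641 and 2524 normalized counts in Ccdc117ko and 2498, 2329.6 and 2417 in WT. Its difference was 1.07-fold and was not called (log2 fold change 0.10 ± 0.05, limma adjusted p = 0.212). Mvk, mevalonate kinase, had 423, 521 and 559 normalized counts in Ccdc117ko against 432, 403 and 446 in WT, so that Ccdc117ko replicates 2 and 3 stood above the WT range and replicate 1 within it. It was not called (limma adjusted p = 0.161), but was called without Ccdc117ko replicate 1 (0.0316). The remaining steps overlapped between genotypes. Acat2, the cytosolic thiolase that opens the route, had 571, 686 and 624 normalized counts in Ccdc117ko and 579.5, 634 and 627 in WT. Pmvk, phosphomevalonate kinase, had 521, 579 and 532 in Ccdc117ko and 562, 477 and 466 in WT. In both genes the highest library was Ccdc117ko replicate 2. Mvd, mevalonate pyrophosphate decarboxylase, had 205, 266 and 285 in Ccdc117ko, with replicate 1 the lowest of all libraries, and 226, 222 and 246 in WT. Idi1, the isopentenyl pyrophosphate isomerase, had 1859.8, 1733 and 1731 in Ccdc117ko and 1602, 1746 and 1801 in WT. Log2 fold changes were 0.03 for Acat2, 0.12 for Pmvk, 0.11 for Mvd and 0.05 for Idi1, with limma adjusted p-values of 0.394 to 0.856. For Acat2, 45.9% of the 50-base words of its transcript are shared with other genes, mainly Acat3, and for Idi1 21.3% are shared, so their totals are uncertain.

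Ggps1, geranylgeranyl pyrophosphate synthase, takes farnesyl pyrophosphate away from sterols toward prenylated proteins, and was the only one of the 19 enzymes with a fold change below 0. It had 616, 522 and 558 normalized counts in Ccdc117ko and 619.7, 609 and 652 in WT. Ccdc117ko replicates 2 and 3 lay below the WT range and replicate 1 inside it, and the difference was not called (log2 fold change -0.15, limma adjusted p = 0.217).

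From squalene to cholesterol, all 11 enzymes had a fold change above 0, with a median log2 fold change of 0.26. Of these, 4 rose (36.4%, against 8.35% of all tested genes), limma called none lower (0 also at an unadjusted p under 0.05, and 0 with voom weights), and in 8 the genotypes did not overlap (72.7%, against 17.3%). The 4 became 2 without Ccdc117ko replicate 2 or without WT replicate 3. The called enzymes lie in the stretch from lanosterol to cholesterol.

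Cyp51 (ENSMUSG00000001467, chr5:4081145-4104746, minus strand), the cytochrome P450 that demethylates lanosterol and makes the follicular fluid meiosis-activating sterol, had 4138, 4632 and 4677 normalized counts in Ccdc117ko and 3807, 3524 and 3528 in WT. The lowest Ccdc117ko library lay above the highest WT library. The means were 4482 ± 299 in Ccdc117ko and 3619.8 ± 162 in WT (SD, n = 3 each), a ratio of 1.24 and a log2 fold change ± SE of 0.31 ± 0.06 (limma adjusted p = 0.00378). Cyp51 was called in all 17 alternative settings, with limma adjusted p-values of 0.00124 to 0.0264. Its gene overlaps Akap9 on the opposite strand, and whether the counting used strand is not given in the sources used here.

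Tm7sf2 (ENSMUSG00000024799, chr19:6062821-6068373, minus strand), a sterol reductase that acts on the product of Cyp51, had 385, 524 and 481 normalized counts in Ccdc117ko and 365, 327 and 330.2 in WT. Ccdc117ko replicate 1 was only just above the highest WT library, while replicates 2 and 3 were well above it. The gene overlaps Vps51 on the same strand, so reads from shared bases could be counted for either gene. With means of 463 ± 71.4 in Ccdc117ko and 340.4 ± 21.0 in WT (SD, n = 3 each), the ratio was 1.36 and the log2 fold change 0.43 ± 0.11 (limma adjusted p = 0.0191). The call was lost without Ccdc117ko replicate 2 (limma adjusted p = 0.098), Ccdc117ko replicate 3 (0.0711), WT replicate 2 (0.0643) or WT replicate 3 (0.063), and with the lower filter of 0.5 normalized counts (0.0688).

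Sc5d (ENSMUSG00000032018, chr9:42251595-42264256, minus strand), the desaturase that makes the substrate of the last reductase, had 647, 719 and 648 normalized counts in Ccdc117ko and 540.4, 553 and 549 in WT. The WT libraries were nearly equal, and each Ccdc117ko library exceeded them. The means were 671 ± 41.7 in Ccdc117ko and 548 ± 6.66 in WT (SD, n = 3 each), with a ratio of 1.23 and a log2 fold change ± SE of 0.29 ± 0.07 (limma adjusted p = 0.017). This call was lost without Ccdc117ko replicate 2 (limma adjusted p = 0.0896) or WT replicate 3 (0.051).

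Dhcr7 (ENSMUSG00000058454, chr7:143823145-143848410, plus strand), the reductase that turns dehydrocholesterol into cholesterol, showed the highest fold change of the 29 genes. It had 847, 1191 and 996 normalized counts in Ccdc117ko and 719.5, 714 and 734 in WT. The Ccdc117ko libraries were widely spread, yet the lowest of them exceeded the tightly grouped WT libraries. The means were 1011 ± 172 in Ccdc117ko and 723 ± 10.4 in WT (SD, n = 3 each), a ratio of 1.40 and a log2 fold change ± SE of 0.47 ± 0.10 (limma adjusted p = 0.00781). Dhcr7 was called in all 17 alternative settings (limma adjusted p = 0.00237 to 0.0463).

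Among the 7 uncalled enzymes of this stretch, Fdft1, Sqle, Hsd17b7 and Ebp had no overlap between genotypes. Fdft1, squalene synthase, had 16562, 17104 and 17009 normalized counts in Ccdc117ko and 15659.7, 15995 and 15781 in WT, a 1.07-fold difference (log2 fold change 0.10 ± 0.04, limma adjusted p = 0.088). Sqle, the squalene epoxidase, had 4236, 4293 and 4439 normalized counts in Ccdc117ko and 4146, 4058 and 4119 in WT (limma adjusted p = 0.271). For both genes the separation was complete but small. Hsd17b7, a keto reductase of the demethylation steps, had 169.9, 165 and 148 normalized counts in Ccdc117ko and 137, 136 and 128 in WT (limma adjusted p = 0.155). Ebp, the sterol isomerase, had 527, 589 and 557 in Ccdc117ko and 491, 513 and 484 in WT (limma adjusted p = 0.151). Fdft1 overlaps Ctsb on the opposite strand and shares 10.9% of its 50-base words, mainly with Gm6781.

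Msmo1, Lss and Nsdhl overlapped between genotypes. Msmo1, the sterol methyl oxidase that starts the demethylation steps, had 679, 1003 and 819 normalized counts in Ccdc117ko and 730.4, 614 and 621 in WT. Ccdc117ko replicates 2 and 3 exceeded all WT libraries and replicate 1 did not, and the log2 fold change of 0.33 ± 0.12 was not called (limma adjusted p = 0.0738). It was called without Ccdc117ko replicate 1 (0.0141) or without WT replicate 1 (0.0376), again by limma. Lss, lanosterol synthase, had the same arrangement of libraries, with 692, 827 and 867 normalized counts in Ccdc117ko and 744, 624 and 704 in WT. It differed by 0.20 on the log2 scale (adjusted p by limma 0.166, or 0.0467 without Ccdc117ko replicate 1). Nsdhl, a decarboxylating dehydrogenase of the demethylation steps, had 468, 546 and 477 normalized counts in Ccdc117ko and 510.1, 409.9 and 492 in WT and was not called (limma adjusted p = 0.628).

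Within the Ccdc117ko genotype, 1 library was low for most enzymes. Ccdc117ko replicate 1 was the lowest library of its genotype in 15 of the 19 enzymes (78.9%, against 33.2% of all tested genes), and replicate 2 was the highest in 11 of 19 (57.9%, against 31.6%). Summed over the 19 enzymes, the libraries held 39695, 42653 and 41709 normalized counts in Ccdc117ko and 37856, 37312 and 37287 in WT. Each Ccdc117ko sum exceeded each WT sum, with replicate 1 nearest to WT. Fdft1 alone made up 40.1% to 42.9% of the sum in each library.

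**Figure D2:**
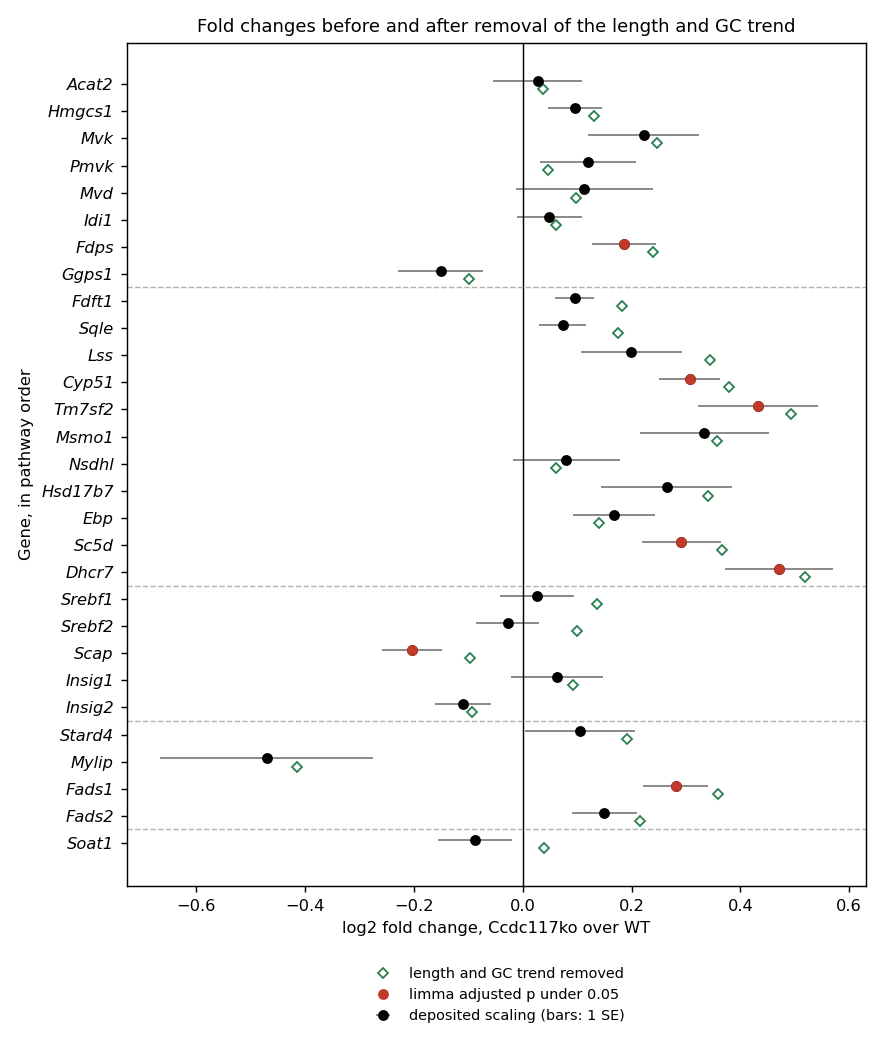
Points give the log2 fold change of Ccdc117ko over WT for the 29 tested genes on the horizontal axis, with bars of 1 SE; red points were called (limma adjusted p under 0.05), and green diamonds are the fold changes after the trend with transcript length and GC content was removed. The diamonds of all 11 genes from Fdft1 to Dhcr7 lie right of 0, while that of Scap moves to -0.10.

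Among the 5 regulators, limma called none higher (0 also at an unadjusted p under 0.05, and 0 with voom weights) and 1 lower (20%). Of all tested genes, 8.35% were called higher and 8.25% lower. The median log2 fold change of the regulators was -0.03. Scap (ENSMUSG00000032485, chr9:110333288-110384950, plus strand), the sterol-sensing escort of SREBPs, had 1328, 1263 and 1330.3 normalized counts in Ccdc117ko and 1534, 1514 and 1468 in WT. All Ccdc117ko libraries lay below all WT libraries. The means were 1307 ± 38.2 in Ccdc117ko and 1506 ± 34.0 in WT (SD, n = 3 each), a ratio of 0.868 and a log2 fold change ± SE of -0.20 ± 0.05 (limma adjusted p = 0.0239). The call was lost without Ccdc117ko replicate 2 (limma adjusted p = 0.106) or WT replicate 2 (0.0664), and with the length and GC trend removed, where the log2 fold change was -0.10 (0.28).

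Srebf2, which encodes the SREBP that mainly drives sterol synthesis, had 1903, 1882 and 1840.2 normalized counts in Ccdc117ko and 2052, 1785 and 1906 in WT, all Ccdc117ko values lying inside the WT range. Srebf1, whose products act more on fatty acid synthesis, had 825, 904 and 809 in Ccdc117ko and 811, 865 and 816 in WT. Neither was called, with limma adjusted p-values of 0.791 for Srebf2 and 0.833 for Srebf1. Insig1, an anchor of SCAP that is itself an SREBP target, had 734, 746 and 712 normalized counts in Ccdc117ko and 659, 648 and 803 in WT, where replicate 3 was the highest of all (limma adjusted p = 0.666). Insig2, the anchor that depends less on SREBP, had 2213, 2138 and 2179.8 in Ccdc117ko and 2232, 2417 and 2404 in WT. Its genotypes did not overlap, but the log2 fold change of -0.11 ± 0.05 was not called (limma adjusted p = 0.165).

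Of the 4 genes for uptake, transfer and desaturation, 1 rose, Fads1 (25%, against 8.35% of all tested genes). Fads1 (ENSMUSG00000010663, chr19:10182888-10196877, plus strand), a front-end desaturase of polyunsaturated fatty acids and an SREBP target, had 2352, 2372 and 2399.5 normalized counts in Ccdc117ko and 2138, 1851 and 1884 in WT. The Ccdc117ko libraries were nearly equal and all above WT. The means were 2375 ± 23.6 in Ccdc117ko and 1958 ± 157 in WT (SD, n = 3 each), a ratio of 1.21 and a log2 fold change ± SE of 0.28 ± 0.06 (limma adjusted p = 0.00791). It was called in all 17 alternative settings (limma adjusted p = 0.000909 to 0.036).

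Fads2, the desaturase acting before Fads1 in the same route, had 6933, 7031 and 6920.4 normalized counts in Ccdc117ko and 6791, 5637 and 6448 in WT. The ranges did not overlap, WT replicate 1 lying just under the Ccdc117ko libraries. The log2 fold change of 0.15 ± 0.06 was not called (limma adjusted p = 0.102), and was called without WT replicate 1 (0.0183). Stard4, a cytosolic sterol carrier, had 253, 244 and 241 normalized counts in Ccdc117ko and 239, 239 and 209 in WT (limma adjusted p = 0.524). Mylip, the ubiquitin ligase that sends lipoprotein receptors to degradation and is induced by the sterol-activated receptor LXR, had 52.0, 41.7 and 63.5 normalized counts in Ccdc117ko and 77.1, 66.4 and 72.7 in WT. All its Ccdc117ko values were below WT, with the lowest fold change of the 29 genes and the widest error (log2 fold change -0.47 ± 0.20, limma adjusted p = 0.122).

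Soat1, which esterifies cholesterol for storage in most tissues, had 1693, 1899 and 1748 normalized counts in Ccdc117ko and 1731, 2051 and 1903 in WT (log2 fold change -0.09, limma adjusted p = 0.421). Soat2, the enzyme with that role in liver and intestine, had 4 reads in Ccdc117ko replicate 3, 4 reads in WT replicate 3 and none in the other libraries. It was not tested.

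Levels between genes were compared as normalized counts per kilobase of exon, averaged over the 6 libraries. Fdft1 led with 3868, followed by Fads2 with 2011, and then Cyp51 with 918, Fdps with 853, Sqle with 760.04 and Insig2 with 652. The libraries of Fdft1 and Fads2 did not overlap on this scale, while those of Cyp51 and Fdps did. The lower end held Lss with 68.9, Stard4 with 42.5, Hsd17b7 with 28.8, Mylip with 19.2 and Soat2 with 0.600. Consecutive enzymes therefore differed widely in level, Lss lying far under its neighbours Sqle and Cyp51. With the longest transcript as the length, 22 of the 29 tested genes stayed within 2 places of this order.

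**Figure D3:**
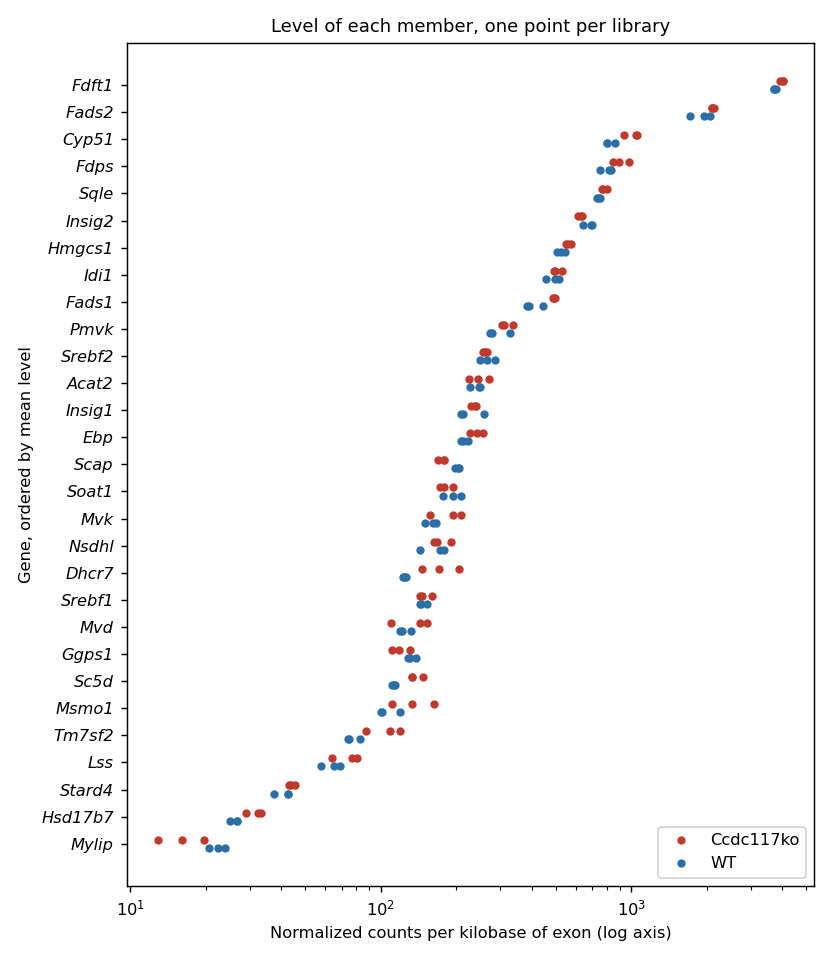
Points are libraries (red Ccdc117ko, drawn above blue WT), on a log axis of normalized counts per kilobase of exon, for the 29 tested genes ordered by mean level. Fdft1 stands apart at the top and Mylip at the bottom, and the called genes are found in the upper, middle and lower parts of the order.

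Fold changes in these libraries fell with transcript length, with a Spearman rho of -0.35 across 22837 genes, which are not independent replicates. After a smooth trend of length and GC content was removed from each library, 10 of the 29 genes were higher (34.5%, against 8.21% of all genes so tested) and none lower (against 4.02%; 0 also at an unadjusted p under 0.05). The 10 were the 6 named above with Fdft1, Sqle, Lss and Fads2. On the log2 scale, Fdft1 then stood at 0.18 (adjusted p by limma 0.00828), Sqle 0.17 (0.0147), Lss 0.34 (0.0232) and Fads2 0.22 (0.0186). Cyp51 had 0.38 (0.00124) and Dhcr7 0.52 (0.00632) on the same scale. Over all genes, this removal changed the share of calls that were higher in Ccdc117ko to 67.1%, against 50.3% without it. Whether the length trend is technical was not tested.

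Genes next to this pathway were called lower or not called. Among 59 genes in 6 lists (SREBP processing, isoprenoid branches, fatty acid synthesis, electron donors, LXR targets and sterol traffic), limma called none higher (2 at an unadjusted p under 0.05, 0 with voom weights) and 9 lower (15.3%, against 8.25% of all tested genes), with a median log2 fold change of -0.06. After removal of the length and GC trend, limma called 2 higher (Elovl6 and Rxra, named after their values were seen) and 3 lower. Over the 17 alternatives the number called lower ran from 3 to 9 and the number called higher from 0 to 2. The number called lower was 3 with the filter at 0.5 normalized counts or with none, without Ccdc117ko replicate 2 and without WT replicate 3. At the filter of 0.5, Mbtps1, Erlin2, Icmt, Fasn, Scd2 and Gramd1b lost their calls (limma adjusted p = 0.0536 to 0.0926), and Acacb, Elovl2 and Abca1 kept theirs.

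The list of fatty acid synthesis genes driven by SREBP1 had 4 of 13 called lower (30.8%, against 8.25% of all tested genes), and 2 of 13 with the filter at 0.5 normalized counts, without Ccdc117ko replicate 2 or without WT replicate 3. Acacb, the acetyl-CoA carboxylase of the mitochondrial surface, had 212, 213 and 212 normalized counts in Ccdc117ko and 310.4, 317 and 289 in WT (log2 fold change -0.52 ± 0.09, limma adjusted p = 0.00356). Elovl2, an elongase of long polyunsaturated fatty acids required for mouse sperm formation, had 6998, 7076 and 7446 in Ccdc117ko and 8324, 8643 and 9189 in WT (log2 fold change -0.28 ± 0.05, limma adjusted p = 0.00251). Elovl2 thus lay lower in Ccdc117ko, whereas Fads1, which acts in the same polyunsaturated route, lay higher. Scd2 (a stearoyl-CoA desaturase) and Fasn (fatty acid synthase) also fell, by 0.23 and 0.21 on the log2 scale (limma adjusted p = 0.0154 and 0.0262). Both calls were lost with the length and GC trend removed (limma adjusted p = 0.166 and 0.727), without Ccdc117ko replicate 2 (0.0775 and 0.126) and without WT replicate 3 (0.0603 and 0.106).

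In the list of LXR regulators and targets, 1 of 7 was called, and it was lower (14.3%, against 8.25% of all tested genes). Abca1, the pump that exports cholesterol from cells, had 736, 605 and 617 normalized counts in Ccdc117ko and 1068, 1087 and 972 in WT. No library overlapped, and the means of 652 ± 72.3 in Ccdc117ko and 1042 ± 61.7 in WT (SD, n = 3 each) gave a log2 fold change ± SE of -0.68 ± 0.08 (limma adjusted p = 0.000577). Abca1, Acacb and Elovl2 stayed called with any single library left out and with the length and GC trend removed.

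Among 10 genes of SREBP processing and sterol-regulated degradation, 2 were called lower (20%, against 8.25% of all tested genes). Mbtps1, the Golgi protease that first cleaves SREBPs, had 1396, 1328 and 1429 normalized counts in Ccdc117ko and 1697, 1501 and 1653 in WT (log2 fold change -0.22, limma adjusted p = 0.0277). Erlin2, an endoplasmic reticulum protein that binds cholesterol and restrains SREBP activation, had 2528, 2371 and 2391 in Ccdc117ko and 2678, 2737 and 2874 in WT (log2 fold change -0.19, limma adjusted p = 0.0262). Like Scap, both lost the call with the length and GC trend removed (limma adjusted p = 0.399 for Mbtps1 and 0.266 for Erlin2). Mbtps1 also lost it without Ccdc117ko replicate 1 (0.0583), Ccdc117ko replicate 2 (0.119), WT replicate 1 (0.0642) or WT replicate 3 (0.0961), and Erlin2 without Ccdc117ko replicate 2 (0.11), Ccdc117ko replicate 3 (0.0813), WT replicate 2 (0.0595) or WT replicate 3 (0.11), all by limma.

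Of 13 isoprenoid branch genes, 1 was called lower (7.69%, near the 8.25% of all tested genes). This was Icmt, the methyltransferase of prenylated proteins (log2 fold change -0.20, limma adjusted p = 0.0322). Gramd1b, which carries cholesterol from the plasma membrane to the endoplasmic reticulum, was the 1 of 8 sterol traffic genes called (12.5%, against 8.25%). It was also lower (log2 fold change -0.16, limma adjusted p = 0.0284). Both lost the call with the length and GC trend removed (limma adjusted p = 0.352 for Icmt and 0.996 for Gramd1b). Icmt kept it only in the fit without WT replicate 2, and Gramd1b only in those without Ccdc117ko replicate 1 or WT replicate 1, among the 6 fits that leave out a library. None of the 8 electron donor and accessory genes was called by limma (0 also at an unadjusted p under 0.05, and 0 with voom weights). Of these, Tmem97, a sterol-binding membrane protein, had 20992, 19607 and 19865 normalized counts in Ccdc117ko and 18714, 20990.3 and 21193 in WT, and Pgrmc1, a partner of CYP51, had 3909, 4085 and 3743 in Ccdc117ko and 3769, 3541 and 3679 in WT.

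**Figure D4:**
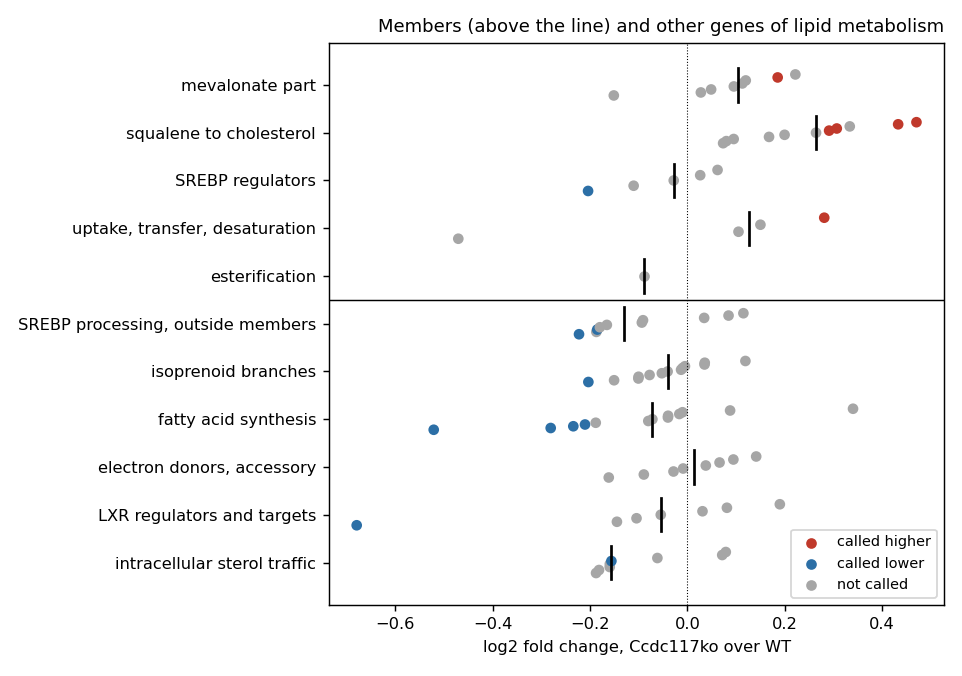
Points are genes, placed by their log2 fold change of Ccdc117ko over WT, in the roles of the 29 tested genes (above the line) and in the 6 neighbouring lists (below it); red and blue points were called higher and lower, and ticks mark medians. The called genes of sterol synthesis lie right of 0, and the called genes below the line lie left of it.

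Markers of other cell types moved between the same libraries. Their lists were chosen with earlier results of these data known, so the counts describe these libraries and are not independent evidence. All 8 round spermatid markers were called higher in Ccdc117ko, with a median log2 fold change of 0.35, and their summed level was 65603 to 69184 normalized counts in Ccdc117ko against 52381 to 57447 in WT. They were called in all 17 alternative settings. Crem, the germ cell factor named above, was 1 of the 8 (log2 fold change 0.24, limma adjusted p = 0.00281). Leydig cell markers were mixed, with 3 of 6 called higher and 1 lower, and summed to 73499 to 86489 normalized counts in Ccdc117ko against 62070.4 to 72734 in WT. Insl3 made up 69.9% to 71.4% of the Leydig sum in Ccdc117ko and 72.6% to 74.1% in WT, and its libraries overlapped between genotypes. Sertoli cell markers had 6 of 8 lower, with sums of 7951 to 8524 in Ccdc117ko against 9691 to 9834 in WT. Elongating spermatid markers had 3 of 8 higher, spermatogonial markers 4 of 8 lower, pachytene spermatocyte markers 2 of 8 lower, macrophage markers 3 of 6 lower and endothelial markers 1 of 6 lower. The endothelial call was Sox17, with mean normalized counts of 707 in Ccdc117ko and 886 in WT. Which cells the Sox17 reads came from was not tested. Of the fat markers, 1 of 3 tested was higher (Adipoq) and 1 lower (Lipe). Mean normalized counts in Ccdc117ko and WT were 15392 and 17101 for Lipe, 233 and 174 for Adipoq, and 79.0 and 79.6 for Plin1. Lipe thus lay far above the other fat markers, and which cells its reads came from was not tested. Fabp4, the fourth, was too low to test and had no read in Ccdc117ko replicate 3. Beside these counts, 8.35% of all tested genes were called higher and 8.25% lower. Apart from the round spermatid list, the counts varied with the setting. With the filter at 0.5 normalized counts, elongating spermatid markers had 1 higher, Leydig markers 2 higher and 0 lower, spermatogonial markers 2 lower, pachytene spermatocyte markers 1 lower, macrophage markers 2 lower, and endothelial and fat markers 0 called. Without Ccdc117ko replicate 2, Sertoli markers had 3 lower, elongating spermatid markers 1 higher, spermatogonial markers 2 lower, pachytene spermatocyte markers 1 lower and Leydig markers 0 lower. Without WT replicate 3, elongating spermatid markers again had 1 higher, spermatogonial markers 2 lower, pachytene spermatocyte markers 1 lower and Leydig markers 0 lower. The spermatogonial count was also 2 without Ccdc117ko replicate 1, Ccdc117ko replicate 3 or WT replicate 2, the pachytene count 1 without Ccdc117ko replicate 1 and the Leydig lower count 0 without Ccdc117ko replicate 3 or WT replicate 2 and 2 without Ccdc117ko replicate 1. No endothelial marker was called without Ccdc117ko replicate 2, Ccdc117ko replicate 3, WT replicate 2 or WT replicate 3, and no fat marker without any 1 of the Ccdc117ko libraries or without WT replicate 3, while 1 of the fat calls was lost without WT replicate 1 or WT replicate 2.

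Library by library, the median of the 11 enzymes from squalene to cholesterol stood at 0.09, 0.30 and 0.24 above the WT mean (log2) in Ccdc117ko replicates 1, 2 and 3. The round spermatid markers stood at 0.31, 0.37 and 0.36 in the same libraries, and the Leydig markers at 0.32, 0.23 and 0.12. The WT libraries lay between -0.02 and 0.03 for the enzymes, -0.06 and 0.07 for the round spermatid markers and -0.10 and 0.13 for the Leydig markers. Ccdc117ko replicate 1, the lowest of its genotype for the enzymes, was thus the highest for the Leydig markers. It was also the lowest of its genotype in 6 of the 8 round spermatid markers (75%, against 33.2% of all tested genes), though the medians of that list were close together. The WT libraries had another order. WT replicate 1 had the highest WT median for the enzymes (0.03), the round spermatid markers (0.07) and the Leydig markers (0.13) alike. The part of cell composition in the sterol gene differences was not tested.

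**Figure D5:**
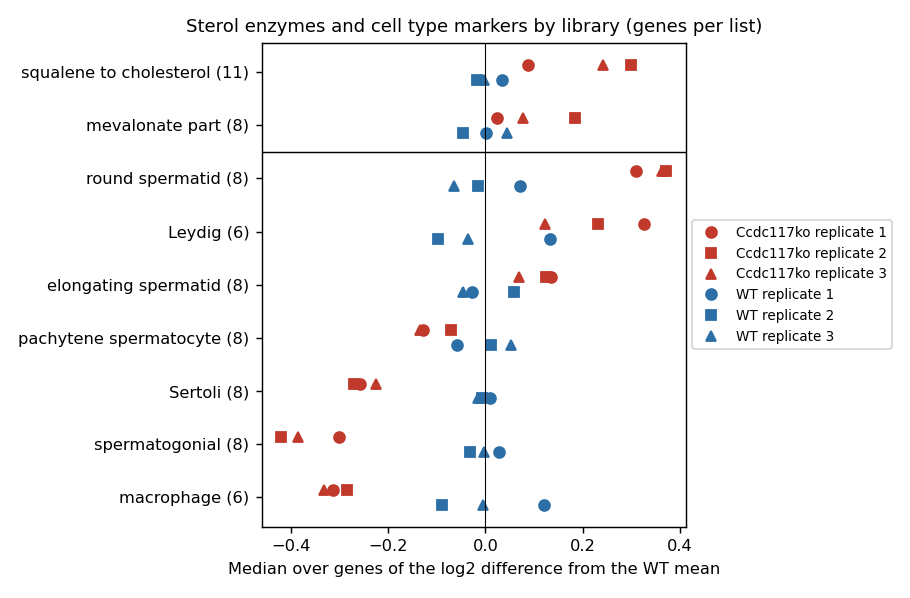
Each symbol is a library (red Ccdc117ko, blue WT; the shape gives the replicate), placed at the median over the genes of a list of the log2 difference from the WT mean, with sterol enzymes above the line and cell type markers below it. For the squalene to cholesterol enzymes the Ccdc117ko libraries stand at 0.09, 0.30 and 0.24, and for the round spermatid markers at 0.31, 0.37 and 0.36.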

How the data were processed

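Testis RNA was sequenced on an Illumina instrument after stranded mRNA library preparation, per the labels' protocols. STAR, DESeq2 and the mm10 build are named, with no version or role, per the submitters' processing notes; how reads were counted, and whether by strand, is not given in the sources used here. Their table, as deposited by the authors, holds a log2 value per gene and library. Its unit is not stated, and from the values themselves it was read as log2(normalized count + 1): undoing the log2 gave whole multiples of 1 step per library for 100% of values under 500 reads, within 0.01. The authors also deposited a p-value and FDR per gene, whose test is not stated.

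Libraries were grouped by labelled genotype. The deposited values were fitted by limma with an intensity trend (version 3.58.1, R version 4.3.3) with genotype as the only term, two-sided, with Benjamini-Hochberg adjustment over the 22878 genes of a mean of at least 10 normalized counts. All fold changes are differences of log2(normalized count + 1). The members, the lists, and this filter were chosen with earlier results of these data known. With a filter at 0.5, 2228 genes are called, 4 of them members higher (Sc5d, Cyp51, Dhcr7 and Fads1) and 1 member lower (Scap). The named genes are all members and Ccdc117. In each neighbouring list they are up to 4 called genes with the smallest adjusted p or, with none called, the 2 of highest mean. Crem and Sox17 were named after their values were seen. Length, GC content and coordinates came from GENCODE M21 (GRCm38). The length and GC trend was removed by spline regression (natural splines with knots at percentiles 25, 50 and 75). No replicates of a genotype were duplicates (chi-square over its degrees of freedom, 3.78 to 5.72). The fit was tested on simulated data. Alternatives were other filters, pseudocounts, scalings and weights, omission of each library, a replicate block, and the trend removal. Counting error was not modelled apart from the spread between libraries.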

Additional observations from a re-analysis of the deposited data

How the results depend on the processing

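Across 17 alternatives, Cyp51, Dhcr7 and Fads1 remained called, and the median of the members stayed above 0. The number of genes called over the whole table was 3798, and became 2228 with genes of a mean of at least 0.5 normalized counts, 2219 with no filter, 2370 with a replicate block and the length and GC trend removed, and 1714 to 4021 when single libraries were left out. Members called higher numbered 6, and became 10 with the trend removed, with or without the block, and 3 to 9 when single libraries were left out. Members called lower numbered 1, and became 0 with the trend removed, with or without the block, and 0 to 1 when single libraries were left out. The share of all tested genes called in either direction was 16.6%. It became 12.2% with the trend removed and 10.4% with the block as well. When single libraries were left out, it ran from 7.49% to 17.6%. The replicate numbers did not pair the libraries (correlations of -0.0033, -0.0039 and 0.0061), and the replicate block alone called 3579 genes, with 6 members higher and 1 lower. With the trend removed, with or without the block, the log2 fold change became 0.0243 for Ccdc117, 0.0993 for Srebf2 and 0.0387 for Soat1. When single libraries were left out, the log2 fold change ran from -0.0703 to 0.0138 for Ccdc117 (above 0 without Ccdc117ko replicate 1), -0.0391 to 0.0934 for Acat2 (below 0 without Ccdc117ko replicate 2 or WT replicate 1), -0.0222 to 0.0579 for Srebf1 (below 0 without Ccdc117ko replicate 2), -9.4e-05 to 0.0845 for Idi1 (below 0 without WT replicate 1), -0.0772 to 0.0233 for Srebf2 (above 0 without WT replicate 1) and -0.0162 to 0.141 for Nsdhl (below 0 without WT replicate 2). None of these was called by limma in any of the fits, and the causes were not tested. Where a genotype keeps 2 libraries, the spread rests on fewer samples. Depth limits Soat2, which had reads in 2 of 6 libraries.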

Other observations

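The authors' deposited table gives an FDR under 0.05 to 4233 genes (11.5% of the table), among them 7 members with a higher level in Ccdc117ko and 1 with a lower level. These are the 7 members called by limma and Fdft1, whose FDR in the authors' deposited table is 0.03. In the authors' deposited table, Cyp51 has an FDR of 4.77e-07, Fads1 5.23e-05, Dhcr7 1.36e-05 and Scap 0.00666.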
